A study of Mus musculus with 3 samples.

Results

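Immature granule-rich neutrophils were picked from 3 droplet single-cell libraries of lung tumours in mice (non-small cell lung cancer) by the transcripts of their granule proteins. A cell was a barcode with at least 500 UMIs (unique molecular identifiers, by which transcripts are counted), at least 200 genes and at most 20% mitochondrial UMIs. It was a member if Ngp, Camp and Ltf together made up at least 1% of its UMIs, if it had at least 5 UMIs of S100a8 and S100a9, no UMI of Cd3e, Cd3d, Cd79a or Ms4a1, and at most 1 UMI of C1qa and C1qb. The rule found 145 members among 29513 cells, 30 in the PD-L1 library, 98 in the AI-Exo library and 17 in the PBS library. They were set beside 3616 other neutrophils, which met the same filters and exclusions, had at least 5 UMIs of S100a8 and S100a9, at least 1 of Csf3r and none of Csf1r, and held under 1% of their UMIs in the 3 granule genes.

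The series examined immune cells of tumour-bearing mice after drug treatment, and its title is about exosomes that inhibit autophagy. The 3 groups are named PD-L1, AI-Exo and PBS, and each was a single library of polyA RNA from tissue labelled non-small cell lung cancer. The labels do not spell the names out. The sources used here do not give strain, tumour line, dose, time, number of mice or any sort. With 1 library per group, differences between groups could not be checked against replicates or tested, and the 95% intervals in brackets cover counting error only.

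Neutrophils make their granule proteins in successive waves while they mature in the bone marrow. Primary granules, with myeloperoxidase and serine proteases such as neutrophil elastase, are filled at the promyelocyte stage. Secondary granules, with lactoferrin (Ltf), cathelicidin (Camp), neutrophilic granule protein (Ngp) and lipocalin 2 (Lcn2), are filled at the myelocyte and metamyelocyte stages under the transcription factor C/EBPε, and gelatinase-rich tertiary granules come later. Transcription of granule genes is largely shut off in the segmented cells of blood and tissue, so cells with abundant Camp and Ngp transcripts are taken as immature, and in tumour-bearing mice such cells can leave the marrow early.

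The promoters of the 3 rule genes, of Lcn2 (a secondary granule gene) and of Elane (a primary granule gene) are shown because granule genes are targets of the C/EBP family, and both granule classes are followed in the results. Each line gives 250 bases before the gene's start, 5′ to 3′ on the gene's strand, from RefSeq on GRCm38.p6. Capitals mark GCAAT or its reverse complement ATTGC, a core of C/EBP sites, searched on both strands. Of 32851 promoters of that length, 23.1% held at least 1 match, and a match is a description of the letters and not a binding site.
Ngp, chr9:110419558-110419807, plus strand: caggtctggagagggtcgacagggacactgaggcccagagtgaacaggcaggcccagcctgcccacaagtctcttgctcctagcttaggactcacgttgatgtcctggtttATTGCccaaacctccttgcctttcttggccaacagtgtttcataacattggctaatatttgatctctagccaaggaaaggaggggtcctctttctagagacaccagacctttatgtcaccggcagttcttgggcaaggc
Camp, chr9:109849457-109849706, minus strand: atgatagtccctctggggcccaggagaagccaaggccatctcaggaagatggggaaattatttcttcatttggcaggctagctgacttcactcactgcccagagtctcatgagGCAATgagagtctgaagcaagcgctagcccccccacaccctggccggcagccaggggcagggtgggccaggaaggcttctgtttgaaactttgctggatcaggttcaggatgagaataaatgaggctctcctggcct
Ltf, chr9:111019042-111019291, plus strand: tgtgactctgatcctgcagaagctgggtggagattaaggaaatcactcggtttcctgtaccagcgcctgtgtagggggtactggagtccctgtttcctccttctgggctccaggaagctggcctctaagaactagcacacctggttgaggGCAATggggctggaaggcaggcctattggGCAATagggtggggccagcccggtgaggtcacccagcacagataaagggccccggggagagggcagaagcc
Lcn2, chr2:32387740-32387989, minus strand: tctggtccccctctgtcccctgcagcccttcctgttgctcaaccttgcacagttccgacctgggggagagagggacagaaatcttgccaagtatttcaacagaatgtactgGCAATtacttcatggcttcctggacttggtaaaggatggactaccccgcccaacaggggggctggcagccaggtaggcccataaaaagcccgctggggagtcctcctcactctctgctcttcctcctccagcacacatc
Elane, chr10:79886062-79886311, plus strand: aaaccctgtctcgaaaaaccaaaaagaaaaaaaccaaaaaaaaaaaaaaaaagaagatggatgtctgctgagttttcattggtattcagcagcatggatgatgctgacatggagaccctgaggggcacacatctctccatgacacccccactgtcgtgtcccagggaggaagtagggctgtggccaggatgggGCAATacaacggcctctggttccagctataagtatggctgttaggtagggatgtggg
Ltf held 2 matches and each of the others 1.

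Depth and purity were checked first. The libraries held 65997942 UMIs in PD-L1, 76512500 in AI-Exo and 68386729 in PBS over 32285 genes, and 9697, 10457 and 9359 barcodes passed as cells. The libraries shared 23 to 33 cell barcodes per pair, and none of the shared barcodes belonged to a member. Members had medians of 7312.5 UMIs in PD-L1, 9648.0 in AI-Exo and 7106.0 in PBS, against 2726.5, 2837.0 and 2628.0 in other neutrophils of the same libraries. Automatic doublet calling marked 0, 4 and 221 cells, so a Scrublet score of 0.15 was used instead, and 0, 2 and 0 members reached it. A single PD-L1 member held 53821 UMIs and 6418 genes, 20.5% of all member UMIs of its library. Its doublet score was 0.0738, the highest of the PD-L1 members, and several PD-L1 values rest on it, beside which values without the deepest cell of each library are given.

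The rule genes themselves are a description. Levels are counts per 1000000 UMIs (CPM), summed over the members of a library, and 1 UMI stands for 1 transcript end whatever the gene's length. Camp, the precursor of the antimicrobial peptide CRAMP, reached 29549.5 CPM in PD-L1 members, 34830.0 in AI-Exo members and 47572.7 in PBS members. Ngp, a cystatin-related granule protein, reached 16681.1, 21081.9 and 23894.5 CPM. The iron-binding Ltf stood at 3519.6, 3964.8 and 5110.5 CPM. All 3 granule genes were lowest in the PD-L1 library and highest in the PBS library. S100a8, a subunit of the calcium-binding calprotectin, stood at 93153.7, 84604.6 and 87814.9 CPM, with PD-L1 highest. In other neutrophils Camp was at 21.4, 63.9 and 28.8 CPM. Free RNA in droplets could give a small part of these levels. An upper limit, from genes of lymphocytes, put it at 3.28% of member UMIs in PD-L1, 3.06% in AI-Exo and 3.1% in PBS, which gives at most 4.77, 17.1 and 2.08 CPM of Camp. The rule left out cells with a UMI of Cd3e, Cd3d, Cd79a or Ms4a1, which can make this limit too low.

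The share of a cell's UMIs in Ngp, Camp and Ltf ran from 1.18% over a median of 3.51% to 9.38% in PD-L1 members, from 1.01% over 4.8% to 15.3% in AI-Exo members and from 1.26% over 5.71% to 15.1% in PBS members. The libraries overlapped up to the highest PD-L1 member, above which lay 13 AI-Exo and 4 PBS members. Just inside the 1% threshold, from 1% to 1.1%, lay 0 PD-L1, 4 AI-Exo and 0 PBS cells. Just outside it, from 0.9% to 1%, lay 1, 2 and 1 cells.

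Members also carried markers of immature granule-making neutrophils that the rule did not use. A UMI of Lcn2 was found in every member of the 3 libraries, against 48.7% of other neutrophils in PD-L1, 45% in AI-Exo and 55% in PBS. Cebpe, the factor of secondary granule genes, was found in 46.7%, 61.2% and 70.6% of members and in 1.58%, 2.1% and 2.29% of other neutrophils. Because members were deeper, each cell was thinned to 1000 UMIs, which kept every member and left out 28 PD-L1, 28 AI-Exo and 16 PBS cells of the other neutrophils. Cebpe was then found in 10%, 12.2% and 17.6% of members, and in 0.403%, 0.489% and 0.581% of other neutrophils. Lcn2 was found in 96.7%, 99% and 94.1% of thinned members and in 27.7%, 25.4% and 36.8% of thinned other neutrophils. The receptor Csf3r, which the rule for other neutrophils asks for and the members' rule does not, had a UMI in 63.3% of PD-L1, 68.4% of AI-Exo and 47.1% of PBS members before thinning. After thinning it was found in 20%, 15.3% and 11.8% of members.

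Genes of other cell types were low in members, apart from Ly6c2, a monocyte gene that immature neutrophils are known to share. The 8 monocyte markers summed to 799 CPM in PD-L1, 757 in AI-Exo and 757 in PBS members. Of these sums, Ly6c2 gave 700, 710 and 750 CPM, and Csf1r, which defines monocytes, gave 11.4, 10.7 and 0 CPM. Of the 8, 0, 2 and 6 had no UMI in members. The 6 macrophage markers summed to 38, 35.6 and 28.8 CPM, the 6 T cell markers to 19, 24.9 and 43.2 CPM, and the 6 B cell markers to 72.3, 60.5 and 93.7 CPM. The limit on free RNA above was taken from these T and B cell genes. The 6 NK cell markers summed to 15.2, 179 and 21.6 CPM, with AI-Exo highest in members and also in other neutrophils (73.3, 187 and 50 CPM). A single AI-Exo member held 140 of the 201 NK marker UMIs, and without it the sum was 55.7 CPM. Of the 6 NK markers 5 were at 0 in PD-L1, none in AI-Exo and 4 in PBS members, and the part of NK transcripts in other AI-Exo values was not tested. Erythroid markers, which stood at 2033.4, 5832.8 and 1640.3 CPM in other neutrophils, stood at 3.8, 13.4 and 0 CPM in members. Epithelial markers stood at 26.6, 17.8 and 0 CPM in members, platelet markers at 26.6, 5.34 and 7.21 CPM, endothelial markers at 3.8, 17.8 and 0 CPM, and dendritic cell markers at 3.8, 2.67 and 7.21 CPM. Eosinophil markers were at 0, 1.78 and 0 CPM, and basophil and mast cell markers were at 0 in the 3 libraries.

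The clearest difference in number was the AI-Exo library. Members made up 0.309% [0.209 to 0.441] of PD-L1 cells, 0.937% [0.761 to 1.14] of AI-Exo cells and 0.182% [0.106 to 0.291] of PBS cells. The AI-Exo share was 5.16 times [3.06 to 9.21] the PBS share and 3.03 times [1.99 to 4.73] the PD-L1 share, and neither interval reached 1. The PD-L1 share was 1.7 times [0.91 to 3.29] the PBS share, an interval that includes 1. A sort or the dissociation can set such shares, and neither is described in the labels.

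Among neutrophils alone the order was the same. Members were 1.94% [1.31 to 2.76] of PD-L1, 8.54% [6.98 to 10.3] of AI-Exo and 1.6% [0.933 to 2.54] of PBS neutrophils. The AI-Exo share was 5.35 times [3.18 to 9.55] and the PD-L1 share 1.21 times [0.648 to 2.35] the PBS share. With the granule threshold at 3% of UMIs the PD-L1 ratio was 0.956 [0.443 to 2.12]. Other neutrophils did not follow that order: they were 15.7% of PD-L1, 10% of AI-Exo and 11.2% of PBS cells. Their AI-Exo share was 0.897 times [0.822 to 0.978] the PBS share, so the AI-Exo library held more members and slightly fewer other neutrophils per cell.

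**Figure D1:**
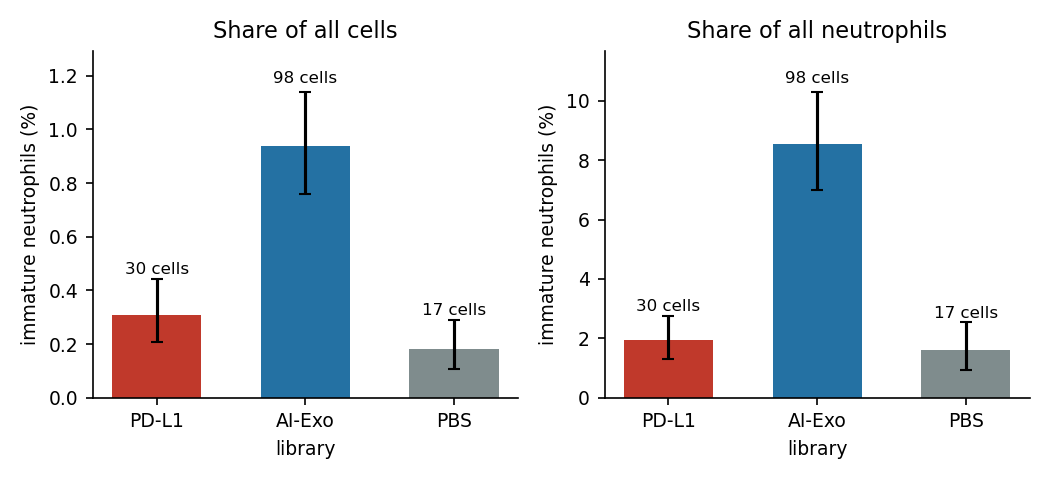
Members as a percentage of all cells and of neutrophils in the PD-L1, AI-Exo and PBS libraries, as bars with exact 95% Clopper-Pearson intervals. The AI-Exo bars, at 0.937% and 8.54%, stand above the other libraries in both panels.

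Members were next compared with the other neutrophils of the same library, which shows what immature cells carry beyond the genes that picked them. UMIs were summed per class and library, and edgeR's quasi-likelihood test with Benjamini-Hochberg adjustment was fitted over 9493 genes with the library as a block. The n of 3 libraries is of 3 different treatments. The genes of either rule were left out of the totals and the test, and genes of one maturation programme move together in a cell, so the granule genes below are not independent of the choice of members. At an adjusted p under 0.05 in edgeR, 1055 genes were higher in members (11.1% of those tested) and 1609 lower (16.9%), with a median log2 fold change over all genes of −0.10. Without the TMM scaling factors 1781 were higher and 1047 lower, so the split between directions depends on the scaling, and the median over all genes was then 0.26. DESeq2 called 692 higher and 943 lower. Without the AI-Exo library 507 were higher and 784 lower, and without the PD-L1 library 685 were higher.

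The primary granule list, which holds Ms4a3 and Serpinb1a beside the proteases, was higher in members for 7 of the 7 genes tested, with a median log2 fold change of 3.82. Ms4a3, a membrane protein of granulocyte progenitors, stood at 118 CPM in PD-L1, 116 in AI-Exo and 28.8 in PBS members, against 0, 1.18 and 0.279 CPM in other neutrophils. Its log2 fold change was 7.49 ± 0.47 (SE, edgeR adjusted p = 2.82e-54). Serpinb1a, an inhibitor of neutrophil elastase, stood at 734, 773 and 634 CPM in members and at 7.6, 24 and 27.9 CPM in other neutrophils, with a log2 fold change of 5.34 ± 0.26 (edgeR adjusted p = 1.86e-91). For Serpinb1a each member library lay above each library of other neutrophils, also without the deepest cell of each library (416, 773 and 617 CPM). In PBS members Serpinb1a gave 88 of the 94 UMIs of the list. In PD-L1 members without the deepest cell the whole list also stood at 416 CPM. All 31 PD-L1 UMIs of Ms4a3 came from the deepest cell, and without the deepest cells it stood at 0, 115 and 16.7 CPM in members, with a log2 fold change of 6.54. The proteases behaved otherwise. Elane, neutrophil elastase, had a log2 fold change of 5.43 ± 0.36 (edgeR adjusted p = 7.77e-49), with 126 CPM in PD-L1, 327 in AI-Exo and 0 in PBS members, and the 33 PD-L1 UMIs all came from the deepest cell. Without the deepest cells Elane was higher in the AI-Exo library alone, with a fitted log2 fold change of 4.72 (edgeR adjusted p = 7.45e-19). Prtn3, proteinase 3, Ctsg, cathepsin G, and Mpo, myeloperoxidase, were likewise at 0 in PBS members and passed the test through the other libraries. Their PD-L1 UMIs, 37, 6 and 2, also all came from the deepest cell. Prtn3 had a UMI in 4.68% of other neutrophils in PBS, so PBS members were below them. Without the deepest cells 6 of the 6 genes of the list then tested were higher, with a median of 3.62, and Mpo was not tested. Of those 6, Elane, Prtn3 and Ctsg were then at 0 in PD-L1 and PBS members and were higher through the AI-Exo library alone. The PBS members held 138735 UMIs in all, at which 3 counts are 21.6 CPM.

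Secondary granule genes were higher for 12 of the 12 tested, with a median of 2.82, and Bpi had no UMI in members and was not tested. Lcn2, which binds bacterial siderophores, stood at 11365.5, 12065.3 and 10761.5 CPM in PD-L1, AI-Exo and PBS members, and at 585, 582 and 847 CPM in other neutrophils. Its log2 fold change was 4.13 ± 0.22 (edgeR adjusted p = 1.97e-75). Fcnb, a ficolin that recognises carbohydrates, had a log2 fold change of 7.07 ± 0.34 (edgeR adjusted p = 9.51e-93), with 373, 378 and 108 CPM in members and 0.39, 1.88 and 4.75 CPM in other neutrophils. In the PD-L1 library 95.9% of the Fcnb UMIs came from the deepest cell, and without the deepest cells Fcnb stood at 19.1, 388 and 41.7 CPM and passed the test (edgeR adjusted p = 2.01e-34). Cd177, a surface partner of proteinase 3, stood at 441, 450 and 548 CPM in members, against 9.16, 14.6 and 29.3 CPM. Orm1, an acute phase protein, and Itgb2l, an integrin subunit, had log2 fold changes of 6.74 ± 0.40 and 5.31 ± 0.33.

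Mmp8, Hp and Mmp9 were less far apart than the secondary granule genes named above. Mmp8, the neutrophil collagenase, stood at 571, 404 and 447 CPM in members and at 68.2, 98.2 and 172 CPM in other neutrophils, and its log2 fold change was 2.20 ± 0.23 (edgeR adjusted p = 3.65e-20). Hp, haptoglobin, reached 1.21 ± 0.20 (edgeR adjusted p = 4.78e-08). Of 6 tertiary granule genes 3 were higher and 1 lower. Mmp9, the gelatinase itself, stood at 514, 447 and 512 CPM in members against 307, 365 and 353 CPM, a log2 fold change of 0.54 ± 0.21 (edgeR adjusted p = 0.04). Slc11a1, a metal transporter of phagosomes, was lower, with a log2 fold change of −1.95.

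Of the 7 subunits and partners of the NADPH oxidase, which makes superoxide, 5 were higher and none lower. Cybb, its catalytic subunit, stood at 769, 998 and 1304.6 CPM in members and at 86.2, 214 and 306 CPM in other neutrophils, with a log2 fold change of 2.50 ± 0.22 (edgeR adjusted p = 1.29e-28). Cyba, the partner of Cybb in the membrane, reached 1.29 ± 0.20 (edgeR adjusted p = 4.25e-09). Ncf1, a cytosolic subunit, had a log2 fold change of −0.25 ± 0.21 and did not pass (edgeR adjusted p = 0.415). Lineage factors changed in both directions, with 3 of 11 higher and 5 lower. Cebpe stood at 179, 253 and 173 CPM in members against 5.07, 6.11 and 6.98 CPM in other neutrophils, a log2 fold change of 5.10 ± 0.30 (edgeR adjusted p = 2.07e-61). Without the deepest cells Cebpe stood at 100, 256 and 150 CPM, with a log2 fold change of 4.91. Myb, a progenitor factor, reached 4.02 ± 0.59 and Gfi1, a repressor of monocyte genes, 2.37 ± 0.71 (edgeR adjusted p = 0.00496), or 1.99 without the deepest cells, where Gfi1 did not pass (edgeR adjusted p = 0.0552). Cebpb, the family member of emergency granulopoiesis and inflammation, was lower at −1.47 ± 0.20 (edgeR adjusted p = 3.44e-12).

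Most cell cycle genes were higher in the fit, but replication genes not in every library. Of the mitosis list 18 of 20 were higher and none lower, with a median of 2.24, and of the DNA replication list 11 of 15, with a median of 2.30. Mki67, a marker of dividing cells, stood at 110, 83.7 and 115 CPM in PD-L1, AI-Exo and PBS members against 12.9, 15.7 and 6.42 CPM in other neutrophils, a log2 fold change of 3.07 ± 0.31 (edgeR adjusted p = 2.62e-21). Of the 29 PD-L1 UMIs of Mki67, 27 came from the deepest cell. Without the deepest cells Mki67 stood at 9.57, 83.8 and 108 CPM, so PD-L1 members were then below the other neutrophils of their library, and the log2 fold change was 2.51 (edgeR adjusted p = 5.44e-09). Hmgb2, a chromatin protein, stood at 1769.3, 2604.3 and 4274.3 CPM against 948, 976 and 947 CPM, and Rrm2, a subunit of ribonucleotide reductase, had a log2 fold change of 4.12 ± 0.34. All 46 PD-L1 UMIs of Rrm2 came from the deepest cell, and its log2 fold change was 2.98 without the deepest cells. The mitosis list then had 14 of 20 genes higher and the replication list 7 of 14, and none lower. Over all UMIs, replication genes summed to 791, 753 and 187 CPM in PD-L1, AI-Exo and PBS members. Other neutrophils stood at 204, 287 and 216 CPM, so PBS members were below them. PD-L1 members were below them too without the deepest cell, at 81.3 CPM. In AI-Exo 75.4% of replication UMIs lay in 12 members described below, and the other 86 stood at 251 CPM. At 1000 UMIs per cell, 1 of 8 mitotic genes (Mki67, Top2a, Cdk1, Ccnb1, Ccnb2, Cenpf, Tpx2, Birc5) was found in 3.33% of PD-L1, 12.2% of AI-Exo and 29.4% of PBS members, and in 1.81%, 2.84% and 1.26% of other neutrophils. Unthinned, the members' shares were 10%, 33.7% and 35.3%. At least 2 replication UMIs were found in 3.33%, 9.18% and 0% of thinned members, and in 2.55%, 2.64% and 3% of thinned other neutrophils. Respiratory chain genes were higher for 8 of 21 and glycolysis genes for 7 of 17, with 3 glycolysis genes lower. Ldha, lactate dehydrogenase A, reached 1.17 ± 0.22 (edgeR adjusted p = 2.60e-06).

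Genes of mature and inflammatory neutrophils ran the other way. Of 23 mature neutrophil genes 18 were lower and 2 higher, with a median of −1.27. Il1b, interleukin 1β, stood at 1796.0 CPM in PD-L1, 1628.5 in AI-Exo and 649 in PBS members, against 12329.4, 11068.5 and 8712.2 CPM in other neutrophils, a log2 fold change of −3.05 ± 0.21 (edgeR adjusted p = 4.58e-44). Cxcl2, a chemokine that draws neutrophils, stood at 6015.7, 5298.5 and 4173.4 CPM against 29431.4, 24309.8 and 27561.1 CPM, a log2 fold change of −2.38 ± 0.20. Cxcr2, the receptor of such chemokines and of release from the marrow, reached −1.05 ± 0.24 (edgeR adjusted p = 1.17e-04). The exceptions were Retnlg, at 0.80 ± 0.20 (edgeR adjusted p = 4.08e-04), and Fpr2, a formyl peptide receptor, at 0.78 ± 0.25. The Retnlg levels of PBS members and other neutrophils, 5189.8 and 5198.0 CPM, were nearly equal over all UMIs, and the fold was fitted with the rule genes left out of the totals.

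Of 14 chemokine and cytokine genes tested 10 were lower and none higher, and of 12 genes named for immune-suppressive neutrophils 8 were lower. Ptgs2, the inducible prostaglandin synthase, stood at 358, 212 and 50.5 CPM in PD-L1, AI-Exo and PBS members against 1439.8, 1512.0 and 1001.0 CPM, a log2 fold change of −2.75 ± 0.23 (edgeR adjusted p = 2.57e-30). Cd274, the gene of the PD-L1 protein, stood at 167, 264 and 64.9 CPM in members against 1364.9, 1376.9 and 669 CPM, a log2 fold change of −2.77 ± 0.24 (edgeR adjusted p = 2.03e-29). After thinning, a Cd274 UMI was found in 13.3%, 19.4% and 0% of members and in 59.5%, 62.2% and 36% of other neutrophils. Cxcl3, at −3.83 ± 0.28, was the 1 named gene whose direction depended on the comparison cells: against other neutrophils with at most 2 UMIs of Ccl3 and Cxcl3 it was 0.39 (edgeR adjusted p = 0.46). Of 10 trafficking receptors 7 were lower, and the exception was Ltb4r1, the leukotriene B4 receptor, at 2.50 ± 0.24 (edgeR adjusted p = 1.56e-22).

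Interferon and antigen presentation genes were lower in members too. Of 34 type I interferon response genes tested 26 were lower and 1 higher, with a median of −1.36; without scaling factors the counts were 19 and 1. Isg15, a ubiquitin-like antiviral protein, had a log2 fold change of −1.89 ± 0.22 (edgeR adjusted p = 4.66e-16). The 1 higher gene was Slfn4, a Schlafen family member of immature myeloid cells, at 0.69 ± 0.21 (edgeR adjusted p = 0.00449). In the PD-L1 library its level over all UMIs was 1898.7 CPM in members and 2041.4 CPM in other neutrophils. MHC class I genes were lower for 9 of 12 and interferon γ genes for 12 of 15. Of 29 autophagy genes 10 were lower and 1 higher, and without scaling factors 7 were lower and 5 higher, so their direction depends on the scaling. Map1lc3b, which coats autophagosomes, and Sqstm1, a cargo receptor, were lower at −1.49 ± 0.21 (edgeR adjusted p = 6.50e-11) and −1.58 ± 0.23 (edgeR adjusted p = 3.01e-10), and Wipi1, of the early autophagosome membrane, was higher at 3.08 ± 0.50 (edgeR adjusted p = 1.20e-08). Heat shock genes were lower for 8 of 13, nucleolar and biosynthesis genes for 5 of 12 and hypoxia genes for 6 of 10, and of these lists 1 hypoxia gene was higher.

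Some of the genes farthest down in members belong to other cells. Fn1 (fibronectin), Ctss (cathepsin S) and the MHC class II genes H2-Ab1, H2-Eb1 and H2-Aa, known from monocytes, macrophages and dendritic cells, had log2 fold changes of −4.93, −3.54, −3.69, −3.57 and −3.35. The other neutrophils held monocyte markers at 308 CPM in PD-L1, 438 in AI-Exo and 1416.1 in PBS and macrophage markers at 181, 240 and 357 CPM, and Fn1 was at 10.7, 98.7 and 361 CPM there, against 3.8, 3.56 and 0 CPM in members. Of 7 monocyte markers tested 6 were lower in members and 1 higher, and of 5 macrophage markers 4 were lower. In the other neutrophils Fn1 followed the order of the monocyte markers, whose part in these changes was not tested. Cpa6, a carboxypeptidase, and Olfml2b, an olfactomedin-like protein, were among the 10 largest increases, at 5.75 ± 0.41 and 5.26 ± 0.41.

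**Figure D2:**
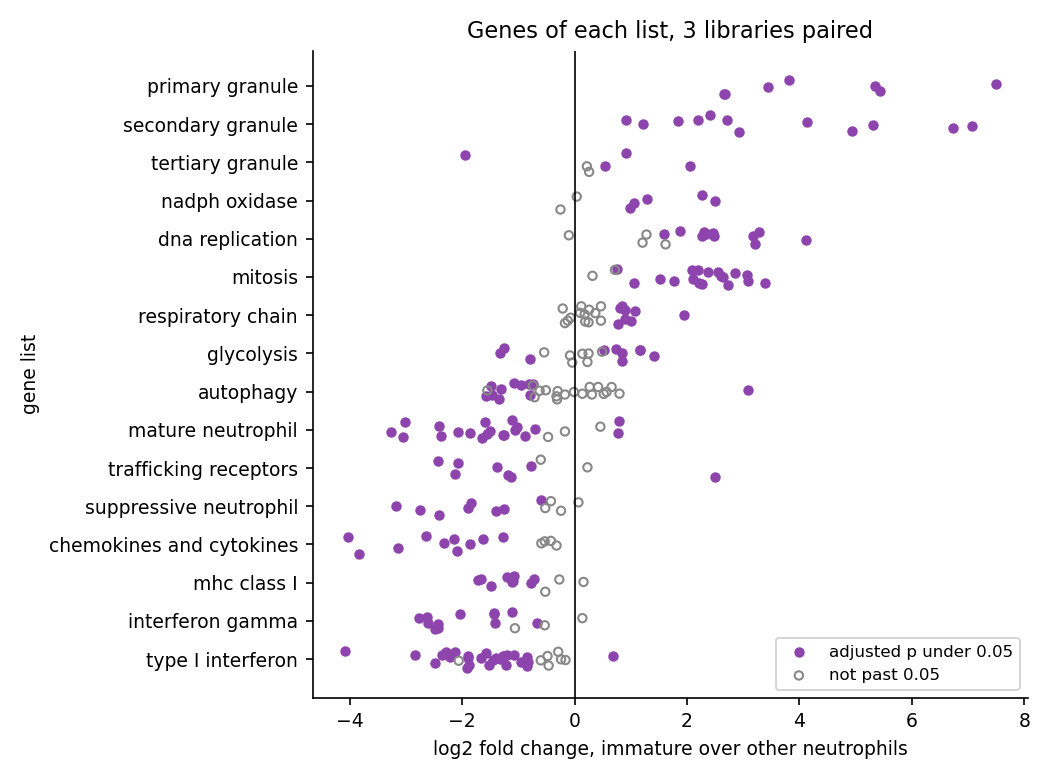
Log2 fold change of each tested gene, members over other neutrophils, by gene list, from edgeR's quasi-likelihood fit over 3 libraries. Filled points passed an adjusted p of 0.05 and open points did not, and granule and cell cycle lists lie to the right of 0 while mature and interferon lists lie mostly to the left.

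Among the members themselves, cells with more granule transcript had less of the mature neutrophil list and more of the other secondary granule genes. The granule share was used by the rule, so the ranges 1% to 3%, 3% to 6% and 6% or more are a description. PD-L1 held 12, 11 and 7 members in these ranges, AI-Exo 29, 30 and 39, and PBS 4, 6 and 7. The mature neutrophil list summed to 65081.6, 51064.7 and 14417.3 CPM over the 3 ranges in PD-L1, to 66353.3, 37451.3 and 17569.9 CPM in AI-Exo and to 67287.4, 29534.2 and 14493.6 CPM in PBS. It was lower in each higher range in all 3 libraries, and the libraries started from close levels.

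Secondary granule genes other than the rule's ran the opposite way, from 11699.4 over 24420.5 to 29770.0 CPM in PD-L1, from 13114.1 over 20210.9 to 30694.2 CPM in AI-Exo and from 12346.3 over 20684.1 to 31100.5 CPM in PBS. Cebpe stood at 37.7, 108 and 330 CPM in PD-L1, at 71.2, 223 and 339 CPM in AI-Exo and at 51.4, 142 and 228 CPM in PBS. Chil3, a chitinase-like protein, stood at 339, 1037.7 and 4512.3 CPM in PD-L1, at 271, 1502.8 and 5844.1 CPM in AI-Exo and at 1646.2, 3795.8 and 6111.6 CPM in PBS. Both genes were higher in each higher range. Fcnb was at 0, 0 and 899 CPM in PD-L1, at 8.89, 194 and 620 CPM in AI-Exo and at 0, 81.2 and 157 CPM in PBS. Most of the PD-L1 and PBS level in the richest range came from the deepest cells, without which Fcnb stood there at 72.4, 654 and 19.5 CPM in PD-L1, AI-Exo and PBS. The secondary granule list, Cebpe and Chil3 were still higher in each higher range without those cells, with Cebpe at 181, 351 and 195 CPM and Chil3 at 2970.2, 5977.6 and 5027.3 CPM in the richest.

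Retnlg was lowest in the richest range, at 2091.1 CPM in PD-L1, 1513.2 in AI-Exo and 2056.2 in PBS, but peaked in different places, at 17938.0 CPM in the middle range of PD-L1 and at 16418.2 and 16924.7 CPM in the lowest range of AI-Exo and PBS. Il1b was also lowest in the richest range, with 5152.2, 606 and 156 CPM over the 3 ranges, against 3393.0, 1486.8 and 1025.4 CPM in AI-Exo and 1389.0, 1238.2 and 28.6 CPM in PBS. Type I interferon genes were lower in each higher range in the 3 libraries. They summed to 12076.4, 7169.8 and 2879.8 CPM in PD-L1, to 3868.9, 2286.0 and 1855.6 CPM in AI-Exo and to 3498.1, 2720.0 and 1556.5 CPM in PBS. Mitosis genes summed to 1696.5, 2021.6 and 5337.7 CPM in PD-L1, to 2018.9, 4014.8 and 6371.3 CPM in AI-Exo and to 2777.9, 9438.7 and 6954.1 CPM in PBS, where the middle range of 6 cells was the highest. The deepest cell of each library lay in the richest range. Without it the mitosis list stood there at 2626.1 CPM in PD-L1, 6573.3 in AI-Exo and 3760.7 in PBS, so that the climb in PD-L1 was mostly that of 1 cell. The type I interferon list stood there at 4871.9, 1719.6 and 1987.5 CPM without it, the mature list at 20103.2, 17280.3 and 14731.1 CPM, Il1b at 18.1, 1006.9 and 19.5 CPM and Retnlg at 3712.8, 1591.7 and 2650.0 CPM, all still lowest in the richest range. Other early genes kept no common order without the deepest cells. Replication genes summed to 126, 67.4 and 36.2 CPM over the ranges in PD-L1, on 10, 5 and 2 UMIs. They summed to 151, 758 and 1036.2 CPM in AI-Exo and to 257, 325 and 39 CPM in PBS. Primary granule genes climbed in PD-L1 and PBS but peaked in the middle range of AI-Exo (231, 2639.4 and 1940.7 CPM). The AI-Exo cells with most Elane, at 149 and 86 UMIs, had granule shares of 3.670% and 3.604%.

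**Figure D3:**
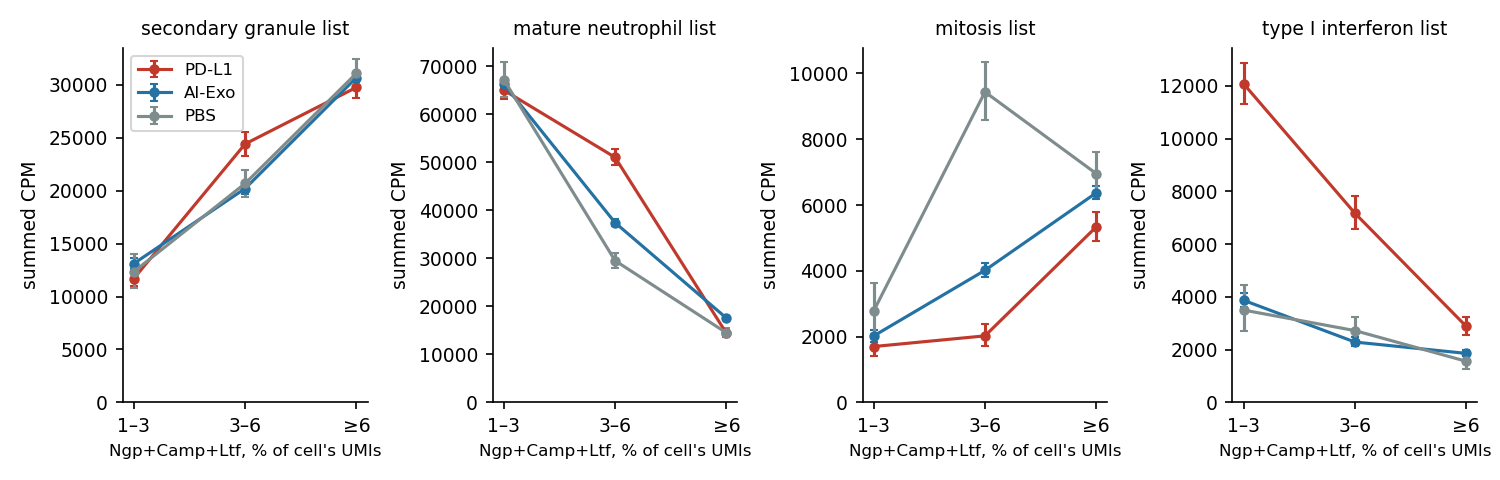
Summed level (CPM, with exact Poisson intervals) of secondary granule, mature neutrophil, mitosis and type I interferon genes in members of 3 ranges of granule share, for PD-L1, AI-Exo and PBS. Mature and interferon genes decline and secondary granule genes climb over the ranges in the 3 libraries.

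The next comparison set the 30 PD-L1 members against the 17 PBS members. Of 4154 measured genes 909 were higher by at least 1.5-fold (21.9%) and 784 lower (18.9%), with a median log2 ratio of 0.00. Ratios are log2 of CPM plus 10 over CPM plus 10, which understates the change of low genes. The counts of each list are to be read against those shares of all genes.

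Type I interferon response genes stood out by size. Of 27 measured 21 were higher in PD-L1 and 1 lower, with a median of 1.94, or 1.82 with the 3 genes at 0 in PBS set to their bounds. Those 3 were measured only through the other libraries. Ifit3, with 45 UMIs in PD-L1, 9 in AI-Exo and 1 in PBS, was measured only through PD-L1. The count of 21 was thus set in part by the filter. The list summed to 6875.6 CPM in PD-L1 members and 2241.7 CPM in PBS members. Isg15 had 810 CPM in PD-L1 and 159 CPM in PBS (213 and 22 UMIs), a ratio of 5.11 [3.29 to 8.33], and a UMI in 26 of 30 PD-L1 and 9 of 17 PBS cells. After thinning, Isg15 was found in 50% of PD-L1 and 5.88% of PBS members. Ifi27l2a, an interferon-induced mitochondrial protein, had 1168.1 and 202 CPM, a ratio of 5.79 [3.93 to 8.86]. Rsad2, the antiviral enzyme viperin, had 232 and 28.8 CPM (61 and 4 UMIs), a ratio of 8.05 [2.99 to 30.5]. Slfn4 had 1898.7 and 706 CPM, a ratio of 2.69 [2.16 to 3.37]. Slfn5, another Schlafen gene, had 41 UMIs in PD-L1 and 0 in PBS, which is at least 7.21-fold higher against a floor of 3 counts in the PBS library. The exception was Ifih1, a sensor of double-stranded RNA, with 60.9 CPM in PD-L1 and 123 CPM in PBS.

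The interferon difference was spread over cells and was of like size in other neutrophils. Type I interferon genes made up a median of 0.684% of a PD-L1 member's UMIs (0.0836% to 1.76%) and 0.207% of a PBS member's (0.0339% to 0.64%). Of 30 PD-L1 members 17 lay above the highest PBS member and 29 above the PBS median. In other neutrophils the median ratio of the list was 1.85, close to the members' 1.94. Within granule ranges, and without each library's deepest cell, the summed list was 3.45 times [2.7 to 4.48], 2.64 times [2.18 to 3.21] and 2.45 times [1.94 to 3.11] as high in PD-L1 as in PBS from the lowest range to the highest. The median over genes was smaller there. Without the deepest cells it was 0.97 over 18 measured genes among members at 3% or more and 0.43 over 9 genes among members at 6% or more, and with them it was 0.91 over 19 genes and 0.32 over 10. By the limit from lymphocyte genes, free RNA could give at most 12.2 CPM of Isg15 in PD-L1 members.

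Most genes of suppressive neutrophils and some of mature neutrophils were also higher. Of 23 mature neutrophil genes 9 were higher and none lower (median 0.53), and of 10 suppressive neutrophil genes 7 were higher and none lower (median 0.94). Il1b had 1796.0 CPM in PD-L1 and 649 CPM in PBS members, a ratio of 2.77 [2.21 to 3.51]. Ptgs2 had 358 and 50.5 CPM (94 and 7 UMIs), a ratio of 7.09 [3.31 to 18.1], and Wfdc17, a small secreted inhibitor-like protein, had 495 and 123 CPM, a ratio of 4.04 [2.43 to 7.14]. Chemokine and cytokine genes were higher for 8 of 12 and lower for 2 (median 0.78). The difference depended on the granule range: among members at 3% or more the log2 ratio of Wfdc17 was −1.40, the reverse of 1.93 over all members, and the mature list's median was 0.04. Of all members 12 of 30 in PD-L1 and 4 of 17 in PBS had under 3%. Fbxl5, an iron-sensing ubiquitin ligase subunit, had 1164.3 and 281 CPM, a ratio of 4.14 [2.96 to 5.94], with a log2 ratio of 2.01 in members and 0.04 in other neutrophils. Trim30a, an interferon-induced ligase, Ell2, a transcription elongation factor, and Pnp, a purine phosphorylase, were higher too, with log2 ratios of 2.02, 1.85 and 1.83.

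Mitosis genes were lower in PD-L1 members, for 16 of 20 and higher for none, with a median of −1.32. Hmgb2 had 1769.3 CPM in PD-L1 and 4274.3 CPM in PBS, a ratio of 0.414 [0.366 to 0.468]. Ube2c, which triggers exit from mitosis, had 7.61 and 245 CPM (2 and 34 UMIs), and Birc5, survivin, had 26.6 and 216 CPM (7 and 30 UMIs). The PBS levels rested on few cells, since 61.8% of Ube2c UMIs came from 1 of the 17. Without the deepest cells Ube2c stood at 0 CPM in PD-L1 and 108 CPM in PBS and Birc5 at 0 and 150 CPM. Tubb5, a tubulin, had 83.7 and 317 CPM, a log2 ratio of −1.80, and Dynll1, a dynein light chain, had 160 and 454 CPM, a log2 ratio of −1.45. Over cells, mitosis genes made up a median of 0.188% of UMIs in PD-L1 and 0.436% in PBS members, and 27 of 30 PD-L1 members lay below the PBS median. The list's median was −2.84 without the deepest cell of each library, −3.79 among members under 6% and −0.53, within 1.5-fold, among members at 6% or more.

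DNA replication and primary granule genes were higher in the PD-L1 sums and not in the sums without 1 cell. Of 9 measured replication genes 8 were higher (median 1.87). PBS members held 26 replication UMIs, so each of the 9 needed UMIs of the other libraries to be measured. Of the 208 PD-L1 replication UMIs, 191 lay in the deepest member. The same cell held all UMIs of Elane (33), Prtn3 (37), Ms4a3 and Rrm2, 98.4% of those of the histone Hist1h1b and 95.9% of those of Fcnb. Without each library's deepest cell the replication median was −0.97, the primary granule median was −0.28 against 1.72 with it, and the log2 ratio of Hist1h1b was −2.21 against 2.02. Secondary granule genes did not differ by size, with 1 of 12 higher and 1 lower and a median of −0.04. Lcn2 had a ratio of 1.06 [0.992 to 1.12], and Chil3, at 2267.8 and 4663.6 CPM, a ratio of 0.486 [0.434 to 0.544]. MHC class I genes were higher for 6 of 11 (median 0.59, and 0.60 in other neutrophils). Autophagy genes were higher for 4 of 21 and lower for 2, with a median of 0.21.

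**Figure D4:**
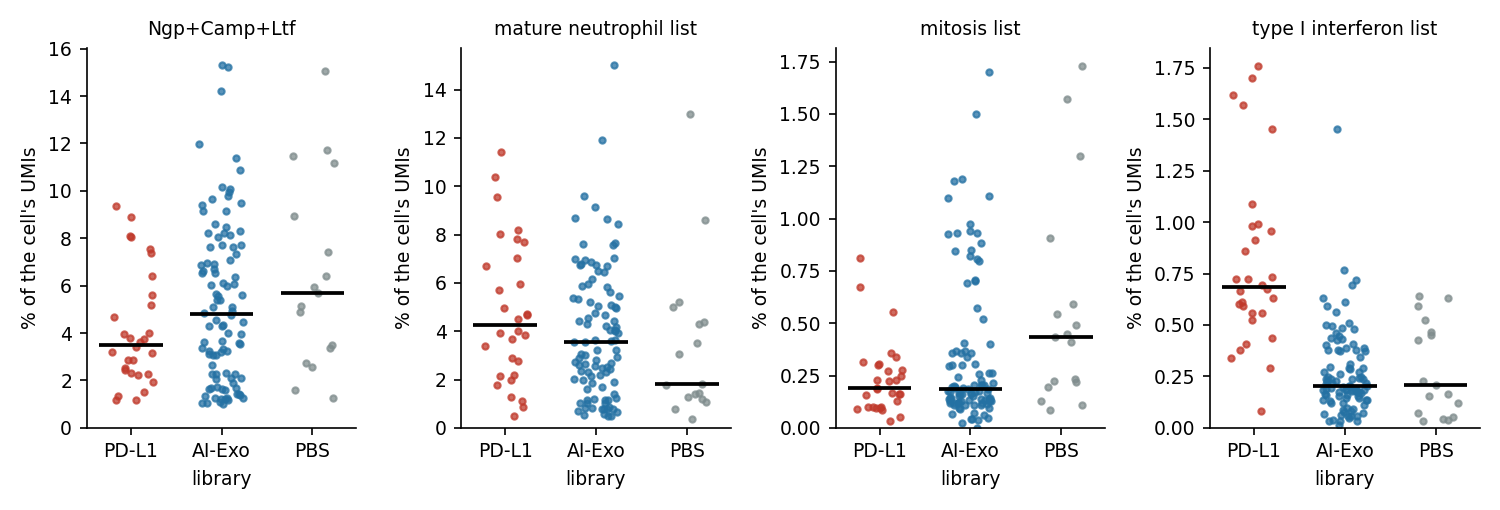
Percentage of each member's UMIs in Ngp, Camp and Ltf together and in mature neutrophil, mitosis and type I interferon genes, 1 point per cell in PD-L1, AI-Exo and PBS, with lines at the medians. The PD-L1 cells sit higher for interferon genes (median 0.684%) and the PBS cells higher for mitosis genes (median 0.436%).

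The last comparison set the 98 AI-Exo members against the same 17 PBS members. Of the 4154 genes 835 were higher (20.1%) and 490 lower (11.8%), with a median log2 ratio of 0.06. Both comparisons share the PBS members, so a level that is odd in those 17 cells appears in both. The type I interferon list did not stand out: 8 of 27 were higher and 6 lower, with a median of 0.22, and the list summed to 2379.0 CPM in AI-Exo and 2241.7 CPM in PBS. Isg15 had a ratio of 1.41 [0.91 to 2.29]. The medians per cell were 0.203% and 0.207% of UMIs, and 4 of 98 AI-Exo members lay above the highest PBS member.

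Primary granule proteases marked a small set of AI-Exo cells. Prtn3 had 516 UMIs in 20 of 98 AI-Exo members (459 CPM) and none in PBS, at least 21.2-fold higher against the floor of 3 counts in the PBS library. Elane had 367 UMIs in 10 cells (327 CPM) and none in PBS, at least 15.1-fold higher. The list's median over 5 measured genes was 2.42, or 1.70 with the 3 genes at 0 in PBS set to their bounds. Serpinb1a, found widely, differed little, with a ratio of 1.22 [0.978 to 1.53]. Of the 5 genes 4 were past 1.5-fold, against 20.1% of all genes. The 3 at 0 in PBS were measured only through the other libraries, so that count was set in part by the filter.

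A threshold of 5 UMIs of Elane and Prtn3 together, chosen after the values were seen, found 1 of 30 PD-L1 members (3.33%), 12 of 98 AI-Exo members (12.2% [6.49 to 20.4]) and 0 of 17 PBS members, where 3 counts would be 17.6% and the Clopper-Pearson interval reaches 19.5%. The PBS share thus rested on 17 cells, and with 1 library per group a difference between the shares was not tested. The 12 AI-Exo cells held 871 of the 883 UMIs of these genes, and 8 more cells had 1 to 4. The 12 had a median of 25935.0 UMIs, against 9139.5 in the other 86 AI-Exo members, and a median granule share of 6.78% against 4.32%.

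Other genes differed between those 12 cells and the other 86, as a description of cells picked by their protease UMIs. The 12 included the deepest AI-Exo member, with 36969 UMIs and no Elane UMI. Its doublet score of 0.151 was past the 0.15 used above, and the sums below include it. Mitosis genes summed to 8480.9 CPM against 3549.1 CPM, replication genes to 2168.7 against 251 CPM and respiratory chain genes to 5836.4 against 2938.7 CPM. Fcnb stood at 952 against 175 CPM and Ms4a3 at 364 against 27.7 CPM. Later genes were lower: Mmp8 at 13.6 against 543 CPM, Ly6g at 91.8 against 642 CPM, Retnlg at 438 against 8772.5 CPM and the mature neutrophil list at 14432.8 against 39449.8 CPM. Lcn2, at 11560.6 against 12244.4 CPM, was nearly equal. The stem and progenitor genes Cd34 and Kit were at 0 CPM in the 12 cells, and Mpo was at 126 CPM, against 0 CPM in the other 86.

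Replication genes were higher in AI-Exo for 9 of 9 measured, with a median of 1.43, or 1.35 with 2 genes at 0 in PBS at their bounds. Rrm2 had 110 CPM in AI-Exo and 21.6 CPM in PBS (123 and 3 UMIs), a ratio of 5.06 [1.69 to 24.9]. Dut, which keeps uracil out of DNA, had 115 and 14.4 CPM, a ratio of 7.97 [2.16 to 66.5], and Hist1h1b had 287 and 50.5 CPM, a ratio of 5.68 [2.73 to 14.2], with UMIs in 26 of 98 AI-Exo cells. The PBS members held 26 replication UMIs in all, so the intervals are wide. Each of the 9 genes thus needed UMIs of the other libraries to be measured, so the count of 9 was set in part by the filter. Of the 846 replication UMIs in AI-Exo, 638 (75.4%) lay in the 12 cells with proteases, and the other 86 members stood at 251 CPM against 187 CPM in PBS, within 1.5-fold. The list's median was 0.68 among members under 6% and 2.66 among those at 6% or more. Mitosis genes went the other way, with 1 of 20 higher and 11 lower and a median of −0.70. Hmgb2 had a ratio of 0.609 [0.558 to 0.667] and Birc5 0.506 [0.338 to 0.782], with Birc5 at 110 CPM in AI-Exo and 150 CPM in PBS without the deepest cells. The mitosis median was −0.10 without the deepest cells and −0.01 among members at 6% or more, so its size depended on which members were taken.

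Chemokine and cytokine genes were higher in AI-Exo members for 8 of 12 and lower for 1, with a median of 1.16, or 0.62 with the 2 genes at 0 in PBS at their bounds. Those 2 genes were measured only through the other libraries, so the count was set in part by the filter. The median was 0.73 without the deepest cells and 0.50, within 1.5-fold, among members at 3% or more. In AI-Exo 242 of 348 Ccl5 UMIs and 58 of 68 Ccl2 UMIs lay in 1 cell each. Il1b had 1628.5 CPM in AI-Exo and 649 CPM in PBS, a ratio of 2.51 [2.03 to 3.14]. Cd274 had 264 and 64.9 CPM (297 and 9 UMIs), a ratio of 4.08 [2.12 to 9], and its log2 ratio was 1.87 in members and 1.03 in other neutrophils. Psmb9, an immunoproteasome subunit, had 151 and 28.8 CPM, a ratio of 5.25 [2.01 to 19.5], and MHC class I genes were higher for 7 of 11 and lower for none, with a median of 0.67 against 0.59 in other neutrophils. H2-K1, a classical class I gene, had 823 and 512 CPM, a ratio of 1.61 [1.26 to 2.08]. Ptgs2 had 212 and 50.5 CPM, a ratio of 4.2 [2.01 to 10.6].

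Secondary granule genes were within 1.5-fold for most: 2 of 12 were higher and none lower, with a median of −0.07. Fcnb, at 378 CPM in AI-Exo and 108 CPM in PBS, had a ratio of 3.5 [2.1 to 6.31], with 388 and 41.7 CPM without the deepest cells, and Lcn2 had 1.12 [1.06 to 1.18]. NADPH oxidase genes were within 1.5-fold for 7 of 7. Autophagy genes, the process in the series' title, were higher for 3 of 21 and lower for 1 (median 0.11), close to or under the shares of all genes. Map1lc3b had a ratio of 1.09 [0.817 to 1.48] and Sqstm1 of 0.908 [0.585 to 1.47]. In other neutrophils none of the autophagy list was past 1.5-fold. Among the genes farthest down in AI-Exo members, Ints6, of the integrator complex, had 53.4 CPM in AI-Exo and 238 CPM in PBS, with 72.7% of the PBS UMIs in 1 cell. Fmo5, a flavin monooxygenase, had 74.8 and 231 CPM, and Ccnb2, cyclin B2, had 45.4 and 151 CPM.

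The lowest genes of both comparisons were the stefin A family, cysteine protease inhibitors of the cytosol of neutrophils, and they rested on a few PBS cells. Stfa1, Stfa2, Stfa2l1 and Stfa3 summed to 126 CPM in PD-L1, 241 in AI-Exo and 2313.8 in PBS members, against 709, 627 and 653 CPM in other neutrophils, and all 4 were lower in both comparisons. Stfa2 had 116 UMIs in 2 PBS cells, 76.7% of them in 1. Cstdc4 and Cstdc5, related cystatin domain genes, stood at 980 and 1715.5 CPM in PBS with 98.5% and 90.3% of UMIs in 1 cell. The stefins made up 1.85%, 0.876% and 0.192% of UMIs in the 3 highest PBS cells and a median of 0% over the 17, and the copies are alike enough in sequence for reads to be shared among them, so single members are uncertain.

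**Figure D5:**
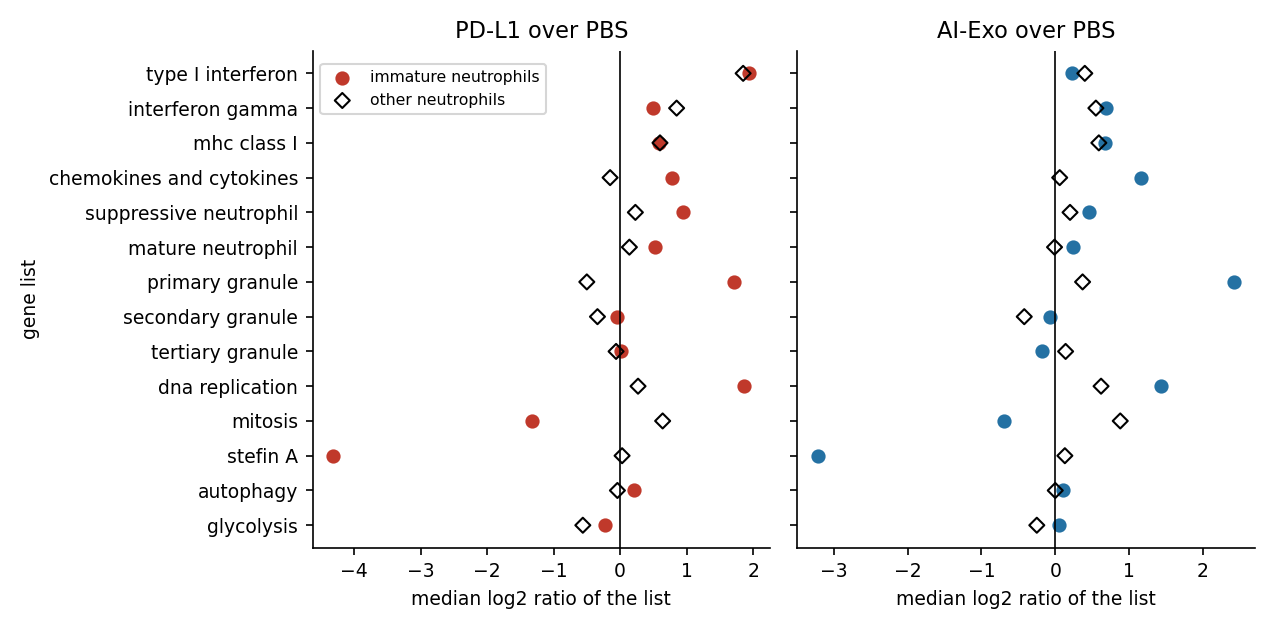
Median log2 ratio of each gene list, PD-L1 over PBS on the left and AI-Exo over PBS on the right, in members (circles) and other neutrophils (diamonds). Type I interferon genes sit near 1.94 and 1.85 in PD-L1, and mitosis genes lie below 0 in members (−1.32 and −0.70) and above 0 in other neutrophils (0.64 and 0.88).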

How the data were processed

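The values were UMI counts per gene and barcode, raw whole numbers as deposited by the authors for the 3 libraries, and the file headers name Cell Ranger 7.1.0. The submitters' processing notes give version 3.0.2. Genome build, annotation and whether introns were counted: not given in the sources used here. Cells, members and other neutrophils were picked from these counts as described, and the members and gene lists were chosen with earlier results of these data known. Of 38 symbols with several identifiers the first was used, and the list symbols Mx1 and BC100530 were not matched.

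UMIs were summed per library and class. Between libraries, genes with at least 20 CPM on average and at least 30 UMIs over the members were measured, with a pseudocount of 10 CPM and a size of 1.5-fold, and no test was made. Levels carry exact Poisson, shares Clopper-Pearson and ratios exact conditional intervals at 95%, which cover counting error only. Members and other neutrophils were compared by edgeR 4.0.16 (R 4.3.3, limma 3.58.1; DESeq2 1.42.0 as alternative) at an adjusted p of 0.05. Nothing says that the 3 libraries pool several mice. The p-values measure how the difference between members and other neutrophils varied over these 3 libraries of different treatments. Both procedures were tested on simulated data. Doublets were scored with Scrublet in scanpy 1.11.5 under Python 3.11.15, and no cell was removed for its score.

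Named between libraries were the 10 highest and 10 lowest genes whose higher library reached 100 CPM and whose pair held 50 UMIs or more, and, against other neutrophils, the 10 highest and 10 lowest past the threshold in 1 direction in 3 libraries, leaving out mitochondrial, ribosomal, antigen receptor, predicted, clone-named, sex-linked and haemoglobin genes. Up to 4 genes per list and the rule genes were also named. Alternatives changed the cell filters, granule threshold, doublets, scaling, pseudocount, gene filter, comparison cells, tool and libraries. Chosen after seeing the data were equal weight per cell, leaving out the deepest cells, ranges of granule share and a comparison with other neutrophils rich in S100a8 and S100a9.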

Additional observations from a re-analysis of the deposited data

Results flagged for a closer look

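Over all members, mitosis genes differed between libraries in opposite directions in the 2 neutrophil classes. In PD-L1 against PBS their median log2 ratio was -1.32 in members and 0.64 in other neutrophils, and in AI-Exo against PBS it was -0.70 in members and 0.88 in other neutrophils. Without the deepest cells the members' median was -2.84 in PD-L1 and -0.10 in AI-Exo. Among members at 6% or more it was -0.53 and -0.01, both within 1.5-fold. The tubulin Tubb5 had a log2 ratio of -1.80 in PD-L1 members and 0.70 in PD-L1 other neutrophils, and the stefin Stfa1 had -4.25 and 0.63. With 1 library per group, none of these differences was tested. The PBS members were 17 cells, and 40% of the PBS Stfa1 UMIs came from 1 of them.

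Signal also appeared in barcodes outside the cells. In barcodes of at most 100 UMIs, which hold free RNA, Ngp, Camp and Ltf made up 0.0241% of UMIs in PD-L1 and 0.0979% in AI-Exo, against 0.0119% in PBS. The ratios to PBS were 2.01 [1.79 to 2.27] and 8.2 [7.4 to 9.1], in the same order as the share of members among the cells.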

How the results depend on the processing

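No paired analysis was possible because, in comparisons between treatments, each had 1 library. Members and other neutrophils were paired within libraries (966 higher and 1128 lower without that block). The share of members among neutrophils, PD-L1 over PBS, fell under 1 with a granule threshold of 3% (0.956), and the other 17 alternative values of shares kept their direction. Gene counts moved with the pseudocount and gene filter. With 50 CPM added, 436 genes were higher and 349 lower in PD-L1, and 342 and 163 in AI-Exo. With no filter the counts were 2211 and 2211 in PD-L1 and 2358 and 1543 in AI-Exo. With at least 100 CPM they were 204 and 146 in PD-L1 and 172 and 90 in AI-Exo. With TMM factors 323 were lower in AI-Exo.

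The type I interferon median in PD-L1 was 1.05 with 50 CPM added, 0.91 at a granule threshold of 3% and 0.32 among members at 6% or more, and in AI-Exo it was -0.40 in that range. Reversed values in PD-L1 were -0.28 for the primary granule list and -0.97 for the replication list without the deepest cells, -1.97 for replication in members under 6%, -0.45 and -2.21 for Hist1h1b with equal weight per cell and without the deepest cells, and -1.40 for Wfdc17 at 3%. In AI-Exo the stefin A median was 3.06 at 6% or more, from 1 gene.

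Against other neutrophils DESeq2 called 692 genes higher and 943 lower, and no scaling factors gave 1781 and 1047. Leaving out a library gave 507 to 1141 higher and 784 to 1486 lower. Cxcl3 turned to 0.39 against other neutrophils low in Ccl3 and Cxcl3. Of the other alternative values, 299 of single genes in that comparison, 362 between libraries and 529 of list medians kept their direction and size. The causes were not tested. The 17 PBS members, with 138735 UMIs, limit every ratio.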
